A study of Mus musculus with 9 samples.

Results

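The citric acid cycle enzyme genes described here are the 9 genes Cs, Idh2, Idh3a, Idh3g, Ogdh, Dlst, Suclg1, Fh1 and Mdh2, taken by gene name from deposited RNA-seq tables of mouse brown adipose tissue. All 9 were listed in each of the 3 tables, among 16937 genes listed in any table and 16006 listed in all of them, and none was lost to a filter on low values. The study compared 3 groups of 3 mice to ask how acute cold and loss of the eIF2 kinase GCN2 (gene Eif2ak4) change the tissue. WT RT mice were wild type and stayed at 23 °C, WT Cold mice were wild type and spent 8 h at 4 °C, and GCN2 KO Cold mice were whole-body Gcn2 knockouts that spent 8 h at 4 °C. The study's methods describe adult mice of both sexes, 12 to 23 wk old, on the C57Bl/6J background, housed singly for 5 days beforehand, and the tables used here hold no knockout mice at 23 °C. The columns carry library codes and no mouse number, so the letters A, B and C stand for the libraries of a group in code order, and the labels used here give no sex for a library.

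The citric acid cycle oxidises the acetyl group of acetyl-CoA in the mitochondrial matrix and passes its electrons, as NADH and reduced flavin, to the respiratory chain. In brown adipocytes much of the proton gradient that the chain builds is released as heat through UCP1, so the cycle supplies the fuel for nonshivering thermogenesis. The 9 genes cover the entry of acetyl-CoA (Cs, citrate synthase), the oxidation of isocitrate (Idh3a and Idh3g, the catalytic and a regulatory subunit of the NAD-dependent enzyme, and Idh2, the NADP-dependent mitochondrial enzyme), the 2-oxoglutarate dehydrogenase complex (Ogdh, its dehydrogenase, and Dlst, its succinyltransferase), and the later steps (Suclg1, the alpha subunit of succinyl-CoA ligase, Fh1, fumarate hydratase, and Mdh2, mitochondrial malate dehydrogenase).

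Depth ran from 27058799 to 30768064 reads per library, summed over listed genes, so counting error is small for genes of this abundance and the spread between mice sets the precision. Reads from the mitochondrial genome made up 17.9 to 18.5% of a library in WT RT, 19.9 to 21.9% in WT Cold and 22.7 to 24.4% in GCN2 KO Cold. The WT RT codes have another prefix than those of the cold groups, so a difference in handling between these sets of libraries and the cold itself cannot be told apart. The targeted gene Eif2ak4 was at 171, 225 and 231 normalized counts in WT Cold libraries and at 347, 371 and 350 in GCN2 KO Cold libraries (log2 fold change 0.78, SE 0.15, limma adjusted p = 0.0932). Against WT RT, in the table of those groups, it was at 368, 395 and 369 in GCN2 KO Cold and at 294, 332 and 368 in WT RT (log2 fold change 0.19, limma adjusted p = 0.260). Its count was thus no lower under the GCN2 KO Cold label than in WT Cold or WT RT, a gene count does not show the loss of a single exon, and the title of 1 of the 3 samples in that group names both genotypes, so every direction drawn from the label is that of the label only. All 10 brown adipocyte markers were detected in every group. Their summed level ran from 20139 to 21891 CPM (reads relative to the total of their library) in WT RT, from 26587 to 28795 in WT Cold and from 31415 to 32215 in GCN2 KO Cold. The sum mixes unlike changes. From WT RT to WT Cold, mean CPM went up for Ucp1 (4544.5 to 8612), Dio2 (84.6 to 999.7) and Elovl3 (357 to 735), among others. Only Plin1 (1254 to 932) and Adipoq (909 to 763) went down.

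The promoters of these genes are shown first, as a description, and no link between their letters and a change was tested. Windows came from RefSeq, on GRCm38.p6, and 8 of the 9 genes had one, with none for Idh3a. Each sequence starts 250 bases before the annotated start of transcription and ends 30 bases into the transcript, and is written 5′ to 3′ on the gene's strand. Capitals mark matches, on either strand, to the cAMP response element TGACGTCA, the GABP site CCGGAAGT (ACTTCCGG on the other strand) or the SP1 box, which reads GGGCGG on the same strand and as its reverse complement, CCGCCC, on the other strand. Mdh2 (chr5:135778399-135778678, plus strand) and Fh1 (chr1:175625606-175625885, minus strand) are shown as genes that were higher in both cold groups. Ogdh (chr11:6291409-6291688, plus strand, one of several annotated starts) shares the cAMP response element with Mdh2, and Dlst (chr12:85110583-85110862, plus strand) holds the GABP site.
Mdh2: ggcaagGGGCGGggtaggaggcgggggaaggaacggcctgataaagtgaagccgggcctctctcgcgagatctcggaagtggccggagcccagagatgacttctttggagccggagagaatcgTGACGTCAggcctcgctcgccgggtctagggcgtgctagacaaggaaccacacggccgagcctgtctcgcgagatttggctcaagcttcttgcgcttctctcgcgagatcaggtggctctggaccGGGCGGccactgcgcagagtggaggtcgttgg
Fh1: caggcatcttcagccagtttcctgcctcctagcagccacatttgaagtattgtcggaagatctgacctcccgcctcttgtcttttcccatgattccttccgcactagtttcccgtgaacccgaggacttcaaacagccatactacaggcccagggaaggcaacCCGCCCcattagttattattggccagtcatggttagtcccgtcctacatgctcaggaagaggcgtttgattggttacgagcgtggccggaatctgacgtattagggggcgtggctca
Ogdh: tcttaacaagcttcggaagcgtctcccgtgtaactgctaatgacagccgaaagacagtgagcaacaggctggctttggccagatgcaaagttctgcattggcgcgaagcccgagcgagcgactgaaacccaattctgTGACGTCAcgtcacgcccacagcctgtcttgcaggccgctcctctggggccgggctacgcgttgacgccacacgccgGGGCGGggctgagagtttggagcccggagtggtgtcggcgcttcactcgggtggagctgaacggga
Dlst: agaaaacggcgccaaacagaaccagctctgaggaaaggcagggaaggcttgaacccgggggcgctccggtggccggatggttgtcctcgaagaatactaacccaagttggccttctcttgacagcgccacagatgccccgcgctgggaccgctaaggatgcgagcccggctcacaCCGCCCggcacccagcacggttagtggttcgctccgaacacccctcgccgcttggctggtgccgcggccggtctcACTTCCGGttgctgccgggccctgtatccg

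The cAMP response element lay in the windows of 2 of the 8 genes. In Mdh2 it began 127 bases before the start, and in this Ogdh window 113 bases before it, against a match in 2.03% of all 27025 genes with a RefSeq window of 300 bases and 1.79% of the 32851 windows. The GABP site occurred in Dlst alone, beginning at the start base itself (4.31% of all genes). The SP1 box occurred in 6 of the 8 genes, namely Cs, Dlst, Fh1, Idh2, Mdh2 and Ogdh (38.2% of all genes). The element of the estrogen-related receptors, searched as TNAAGGTCA, and the canonical palindromic NRF1 site were in none of these windows (1.43% and 1.07% of all genes). In Dlst the scan of the full 300-base window found a further pair of SP1 boxes that overlap each other, beginning 34 and 38 bases after the start and so beyond the printed stretch. A match is a description of the letters only. Of the 3 genes called higher in WT Cold against WT RT, Mdh2 and Fh1 hold the SP1 box, and Idh3a had no window. The box was also in Cs, Dlst, Idh2 and Ogdh, which were not called, so it did not separate called genes from the others.

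The 9 genes were among the abundant transcripts of the tissue. Levels were compared between genes as RPKM (reads relative to both exon length and library total), with the exon length of GENCODE M21. In WT RT, Idh3g had the highest level of the 9, at 372 ± 16.6 RPKM (SD, n = 3), and ranked 121 among 15973 genes. Ogdh at 312 ± 23.3 RPKM and Idh3a at 297 ± 11.1 RPKM followed, and their libraries overlapped through the neighbouring level of Dld. Mdh2 at 259 ± 5.06 RPKM and Cs at 258 ± 11.3 RPKM overlapped as well. Suclg1 (183 ± 4.32 RPKM) and Fh1 (168 ± 8.00 RPKM) each stood apart from the genes next to them. Dlst at 101 ± 3.75 RPKM and Idh2 at 94.7 ± 11.0 RPKM were the lowest of the 9, overlapped each other, and ranked 455 and 487 among all genes.

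The order depended on which length was used for the gene. With the longest coding transcript in place of all exons, Idh3g stayed the highest of the 9 in WT RT, at 754 RPKM, but Mdh2 came next at 633 RPKM, and Ogdh moved below Suclg1 and Cs. Idh2 was the lowest under both lengths. Among the other subunits of the cycle, Suclg2 (the GTP-forming subunit of succinyl-CoA ligase) had the lowest level in WT RT, at 34.9 ± 1.60 RPKM. Its ATP-forming counterpart Sucla2 was at 339 ± 12.8 RPKM.

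**Figure D1:**
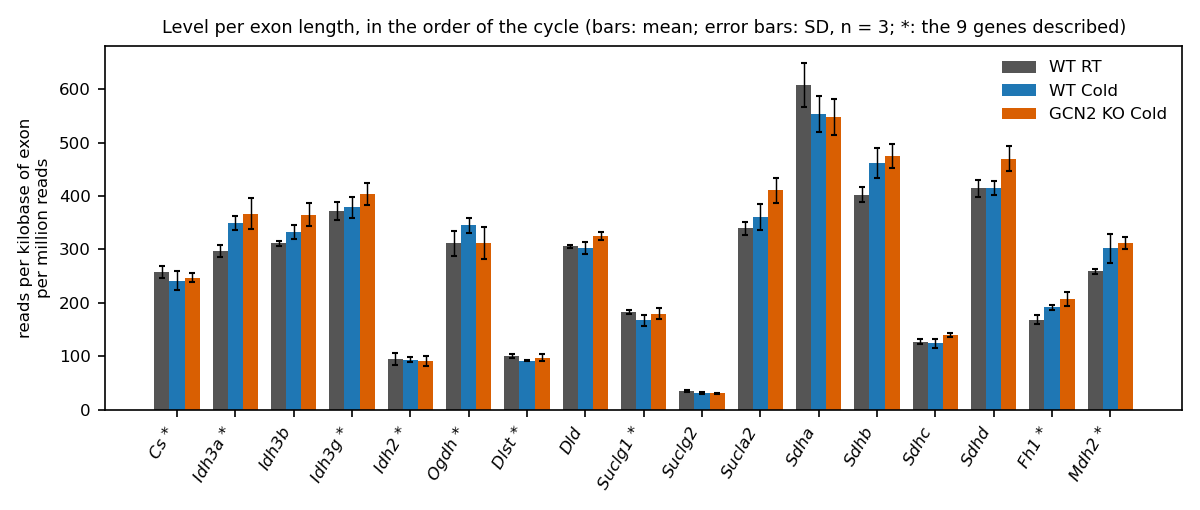
Level of the 9 genes, marked with asterisks, and of other cycle subunits in the order of the cycle, as RPKM, with bars for the mean of 3 libraries, error bars for the SD and colours for the 3 groups. Idh3g is the highest of the 9 genes at 372 in WT RT, and Suclg2 is the lowest gene shown at 34.9.

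Together the 9 genes took 0.925% ± 0.0330 of the reads in WT RT, 0.970% ± 0.0312 for WT Cold and 0.990% ± 0.0507 for GCN2 KO Cold (SD, n = 3 in each). The ranges of the groups were 0.888 to 0.951%, 0.942 to 1.003% and 0.937 to 1.04%, so both cold groups overlapped with WT RT. With reads of the mitochondrial genome left out of the total the shares were 1.13% ± 0.0446, 1.23% ± 0.0230 and 1.29% ± 0.0531, and WT RT (1.08 to 1.17%) no longer overlapped with WT Cold (1.21 to 1.25%) or GCN2 KO Cold (1.24 to 1.34%). Because the tissue was sequenced in bulk, fewer cells of a type and less RNA per cell cannot be told apart.

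Cold in wild-type mice was compared first, to ask which cycle genes move within 8 h at 4 °C. Idh3a, Mdh2 and Fh1 rose by 1.21 to 1.25-fold, the other 6 genes did not pass the test, and none fell. The count of 3 of 9 stands beside 13.6% of all 16679 genes that were called higher and 27.7% called in either direction, by limma on log2(normalized count + 1) at an adjusted p under 0.05. None of the 9 passed the study's threshold, which also asks for an absolute log2 fold change over 1 and which 8.14% of all genes passed.

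Idh3a, whose product carries the active site of the NAD-dependent isocitrate dehydrogenase, had 41187, 41625 and 47062 normalized counts in the WT RT libraries and 54813, 53640 and 53332 in WT Cold. The groups did not overlap, and the 3 cold libraries lay close together (log2 fold change 0.32, SE 0.085, limma adjusted p = 0.0270). Fh1, which hydrates fumarate to malate, had 16888, 15177 and 17084 normalized counts in WT RT against 19777, 19249 and 20218 in WT Cold. Every cold library was above every room temperature library (log2 fold change 0.27, SE 0.075, limma adjusted p = 0.0321). Mdh2, which turns malate back into oxaloacetate, had 25590, 25537 and 28230 normalized counts in WT RT and 33023, 34884 and 30122 in WT Cold. The groups were again apart, with the lowest cold library, C, nearest to WT RT (log2 fold change 0.30, SE 0.087, limma adjusted p = 0.0355).

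Ogdh had 48253, 43689 and 54589 normalized counts in WT RT and 58379, 54714 and 58604 in WT Cold. The groups touched without overlapping, and the difference did not pass the test (log2 fold change 0.23, 95% interval -0.0007 to 0.47, limma adjusted p = 0.123). Cs, often used as a measure of mitochondrial content, had 43731, 39587 and 44865 normalized counts in WT RT and 44428, 42342 and 40363 in WT Cold. Its libraries were intermixed, and the interval of the difference ran from -0.21 to 0.19 on the log2 scale. The remaining genes overlapped between the groups too, with log2 fold changes of 0.11 for Idh3g, 0.073 for Idh2, -0.045 for Suclg1 and -0.056 for Dlst. Thus 4 of the 9 genes had groups that did not overlap, all of them higher, where 45.5% of all genes had none in either direction and 22.8% had none and were higher. On the CPM scale, a check of overlap chosen for each comparison after the values were seen, 3 genes were higher without overlap (Idh3a, Fh1 and Mdh2), 2 were lower without overlap (Dlst and Suclg1), and Ogdh overlapped, where 16.9% of 16006 genes were higher and 27.8% lower in this way.

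The median log2 fold change of the 9 genes was 0.11, against 0.0029 over all genes. With reads scaled to the library total these medians were 0.027 and -0.061. Among 526 genes as abundant as these 9, a set chosen after the values were seen, 37.3% were called higher, 15.6% lower, and the median log2 fold change was 0.19. The 3 calls rested on small margins. None of the 9 genes passed when reads were scaled to the library total (CPM), in limma without a mean-variance trend, or in 1 fit over all 9 libraries. With the mitochondrial genome left out of the CPM total all 3 passed, with limma adjusted p of 0.0245 for Idh3a, 0.0336 for Fh1 and 0.0443 for Mdh2. None passed without library A or B of WT Cold, or without library A or B of WT RT, 2 passed without library C of WT Cold, and all 3 passed without library C of WT RT. Over the libraries left out in turn the log2 fold change of Idh3a stayed between 0.28 and 0.38, that of Mdh2 between 0.26 and 0.36 and that of Fh1 between 0.22 and 0.30. DESeq2 and edgeR on the recovered reads each called the same number, 3 of 9.

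Markers of other cell types moved between WT RT and WT Cold too, where 13.6% of all genes were called higher and 14.1% lower. Of 10 leukocyte markers 6 were called lower (median log2 fold change -1.01), of 5 fibroblast and progenitor markers 3 were called lower (-0.34), all 5 red blood cell markers were called higher (1.64), and of 18 skeletal muscle markers 4 were called higher (0.28). Of 10 brown adipocyte markers 5 were called higher and 1 lower (0.31), and of 6 endothelial markers 2 were called higher (0.27). Their part in the values of the 9 genes was not tested.

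**Figure D2:**
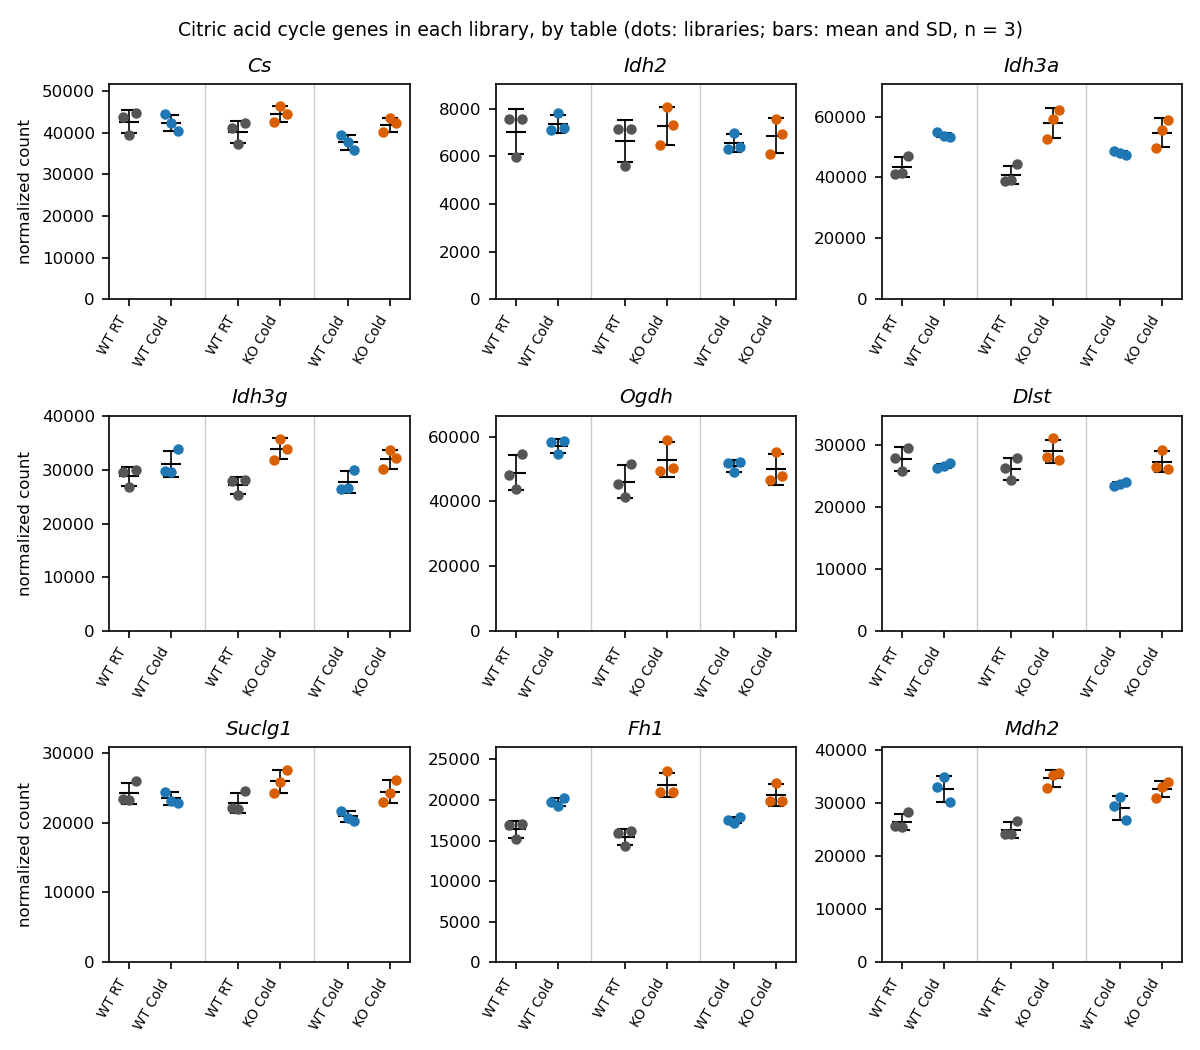
Normalized count of each of the 9 genes in each library, with 1 pair of groups for each of the 3 separately normalized tables; dots are libraries, and bars are the mean and SD of 3. For Idh3a, Fh1 and Mdh2 every library of either cold group lies above every WT RT library, while Cs in WT Cold lies among the WT RT libraries.

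GCN2 KO Cold was then compared with WT Cold, to ask whether loss of GCN2 alters these genes in the cold. None of the 9 genes was called higher or lower by limma at an adjusted p under 0.05, where 0.405% of all 16312 genes were called. With DESeq2 and with edgeR the count was 0 as well, and 4 of the 9, beside 2500 of the 16312 genes, had an unadjusted p under 0.05 in limma. The log2 fold changes ran from -0.035 for Ogdh to 0.23 for Fh1, 8 of the 9 were above 0, and their median was 0.18 against -0.0031 over all genes.

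Fh1 had 17576, 17222 and 17959 normalized counts in WT Cold and 19851, 22152 and 19897 in GCN2 KO Cold. The groups did not overlap, and the 95% interval of the log2 difference was 0.054 to 0.40 (limma adjusted p = 0.218). Suclg1, part of the step that makes a nucleoside triphosphate directly, had 21714, 20706 and 20234 normalized counts in WT Cold against 22899, 24217 and 26127 in GCN2 KO Cold. It too was apart between the groups (log2 fold change 0.22, SE 0.079, limma adjusted p = 0.245). Idh3g had a log2 fold change of 0.21, Dlst 0.20, Idh3a 0.18 and Cs 0.15, and in each of these the groups did not overlap. That makes 6 of 9 genes without overlap, all higher, where 22.0% of all genes had none in either direction and 11.3% had none and were higher. On the CPM scale this fell to 1 of 9, Fh1, where 4.82% of all genes were higher without overlap and 20.6% lower, so the separation of the other 5 depended on the scaling.

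Mdh2 (log2 fold change 0.17) and Idh2 (0.061) overlapped between the groups. Ogdh, the only 1 of the 9 below 0, had 51882, 48954 and 52057 normalized counts in WT Cold and 46508, 55365 and 47774 in GCN2 KO Cold. Its highest library and its lowest were both GCN2 KO Cold, and the interval ran from -0.25 to 0.19 on the log2 scale. Over the 9 genes the widest interval reached no further than 0.41 above 0 and 0.25 below it. Among 558 genes as abundant as the 9, the median log2 fold change was 0.15, which is near that of the 9. With the reads scaled to the library total the median of the 9 was 0.067 and that of all genes -0.095.

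Cell type markers moved with this comparison. The summed level of 18 skeletal muscle markers was 2979 to 4977 CPM in WT Cold and 461 to 1783 CPM in GCN2 KO Cold. All 18 had a log2 fold change below 0, and 2 of them were called lower, where 0.227% of all genes were. Muscle is itself rich in cycle enzymes. The summed brown adipocyte markers, given above, were higher in GCN2 KO Cold than in WT Cold without overlap, and none of the 10 was called. Mean CPM of Fabp4 went from 11431 in WT Cold to 13333 in GCN2 KO Cold, and that of Ucp1 from 8612 to 9580.5. Mean CPM of Adipoq, Pparg, Dio2 and Plin1 was lower, and that of the other markers higher. On normalized counts 9 of the 10 log2 fold changes were above 0. All 5 fibroblast and progenitor markers were below 0 (median -0.38) and none was called. All 4 Schwann cell markers were below 0 (-0.41), and 1 was called lower. Of 6 endothelial markers 5 were below 0 (-0.11), all 5 red blood cell markers were above 0 (0.64), and none of these was called. The part of these lists in the values of the 9 genes was not tested. No marker of these lists was at 0 throughout a group.

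GCN2 KO Cold was last compared with WT RT, a contrast in which genotype and temperature differ together. Idh3a, Fh1, Mdh2 and Idh3g were higher in GCN2 KO Cold by 1.25 to 1.42-fold, and none of the 9 was lower. The count of 4 of 9 stands beside 16.4% of all 16560 genes called higher and 34.2% called in either direction. None of the 9 passed the study's threshold, which 10.6% of all genes passed. WT RT is the reference here as in the first comparison, so the results of the pair are not independent of each other.

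Idh3a had 38810, 39253 and 44395 normalized counts in WT RT and 52661, 59106 and 62202 in GCN2 KO Cold. No library of one group reached the other (log2 fold change 0.51, SE 0.10, limma adjusted p = 0.00705). Fh1 had 15913, 14312 and 16116 normalized counts in WT RT against 21035, 23596 and 21004 in GCN2 KO Cold, again with no overlap (log2 fold change 0.50, SE 0.087, limma adjusted p = 0.00332). Mdh2 had 24113, 24082 and 26630 normalized counts in WT RT and 32891, 35234 and 35751 in GCN2 KO Cold. Its lowest cold library was well clear of the highest WT RT library (log2 fold change 0.47, SE 0.085, limma adjusted p = 0.00380). These 3 genes kept an adjusted p under 0.05 in all 16 alternative settings of the fit, and none passed with the study's fold threshold added.

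Idh3g had 27936, 25294 and 28204 normalized counts in WT RT and 31930, 35858 and 33984 in GCN2 KO Cold. Its groups were apart too (log2 fold change 0.32, SE 0.088, limma adjusted p = 0.0235), but its call was lost in 7 of the 16 settings, among them those without library B of GCN2 KO Cold and without library A or B of WT RT. Cs did not overlap between the groups and had a log2 fold change of 0.15 (limma adjusted p = 0.253). Ogdh (0.20), Suclg1 (0.18), Dlst (0.15) and Idh2 (0.14) overlapped and did not pass the test. Thus 5 of the 9 genes had no overlap, all higher, where 49.2% of all genes had none in either direction and 23.7% had none and were higher. On the CPM scale Idh3a, Fh1 and Mdh2 stayed apart, while Cs and Idh3g overlapped, which leaves 3 of 9 where 13.5% of all genes were higher without overlap and 38.9% lower.

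The median of the 9 genes was 0.20, against 0.0091 over all genes and 0.33 over 530 genes as abundant, of which 52.5% were called higher and 11.5% lower. With reads scaled to the library total the log2 fold changes of all genes shifted to a median of -0.15. Under that scaling 3 of the 9 genes passed, and Cs, Idh2, Ogdh, Dlst and Suclg1 turned to values between -0.066 and -0.0021. The summed skeletal muscle markers were at 3208 to 3854 CPM in WT RT and at 461 to 1783 CPM in GCN2 KO Cold, and 16 of the 18 were called lower, where 17.8% of all genes were. Of the brown adipocyte markers 7 of 10 were called higher (median log2 fold change 0.67), as were all 5 red blood cell markers (2.31), where 16.4% of all genes were. Lower were 6 of 10 leukocyte markers (-1.27), 3 of 5 fibroblast and progenitor markers (-0.73) and 1 of 4 Schwann cell markers (-0.20). Of 6 endothelial markers 1 was higher and 1 lower (0.23). Their part in the values of the 9 genes was not tested.

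**Figure D3:**
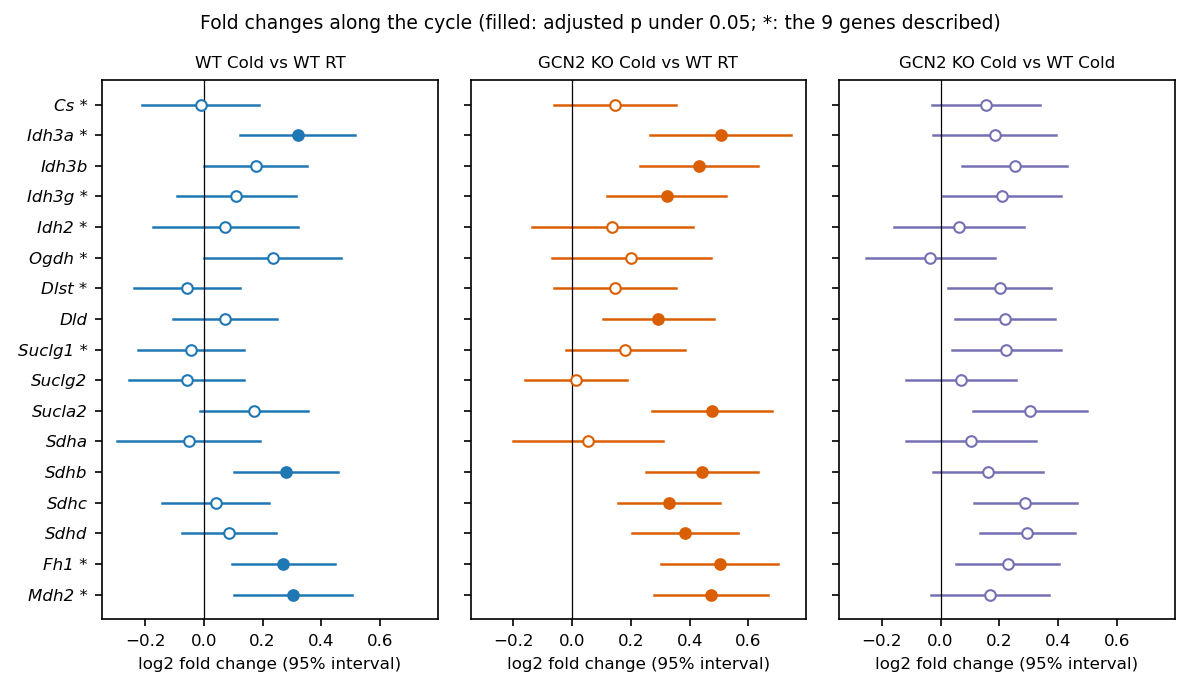
Log2 fold change with its 95% interval for the 9 genes, marked with asterisks, and other cycle subunits, in the order of the cycle, in the 3 comparisons; filled points had an adjusted p under 0.05. Idh3a, Fh1 and Mdh2 are filled in both comparisons with WT RT, and no point is filled between GCN2 KO Cold and WT Cold.

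The 9 genes did not move as a block across the libraries. On the CPM scale, set against the WT RT mean of each gene, the mean log2 difference of the 9 was 0.032, -0.067 and 0.034 in WT RT libraries A, B and C. It was 0.090, 0.052 and 0.0057 in WT Cold libraries and 0.0085, 0.16 and 0.091 in GCN2 KO Cold libraries. All 9 genes were below their WT RT mean in library B of WT RT, and 7 of 9 were above it in library B of GCN2 KO Cold. Within a single cold library the genes spread, for example, from -0.14 to 0.32 in library B of WT Cold and from -0.13 to 0.40 in library C of GCN2 KO Cold.

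**Figure D4:**
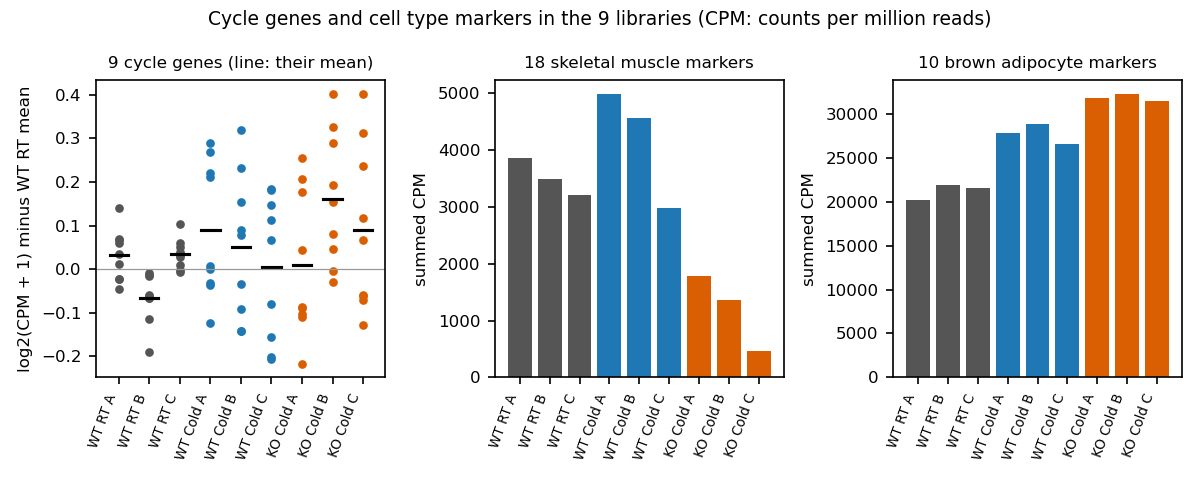
Left, log2(CPM + 1) of each of the 9 genes minus its WT RT mean in each of the 9 libraries, with a line at their mean; middle and right, the summed CPM of 18 skeletal muscle and 10 brown adipocyte markers as bars. Muscle markers are lowest in the 3 GCN2 KO Cold libraries, from 461 to 1783 CPM, and brown adipocyte markers are highest there, from 31415 to 32215 CPM.

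Ratios within a library do not depend on the scaling. They were taken on CPM without correction for exon length. Their size and sign thus do not rank the genes, as the RPKM above do, and only differences between groups are read. The log2 ratio of Idh3a to Idh3g, catalytic to regulatory subunit, was 0.59 ± 0.099 in WT RT, 0.80 ± 0.12 for WT Cold and 0.77 ± 0.087 for GCN2 KO Cold (SD, n = 3). Both cold groups were above WT RT without overlap. The log2 ratio of Idh2 to Idh3a was -2.63 ± 0.18 in WT RT, -2.87 ± 0.085 for WT Cold and -3.00 ± 0.11 for GCN2 KO Cold, with no overlap between the last and the first. Of Suclg2 to Sucla2 the log2 ratio was -3.07 ± 0.12 in WT RT, -3.30 ± 0.18 for WT Cold and -3.53 ± 0.065 for GCN2 KO Cold, which lay below both other groups. In 9 such comparisons the exact permutation test (two-sided) cannot go below p = 0.1 with 3 against 3, and the smallest adjusted value was 0.180, so none passed.

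Of the other 9 subunits of the cycle, 1 was called higher between WT Cold and WT RT and none lower, beside the 13.6% of all genes called higher. Sdhb, the iron-sulfur subunit of succinate dehydrogenase, rose from 25862 ± 1150 to 31376 ± 1425 normalized counts (SD, n = 3, log2 fold change 0.28, limma adjusted p = 0.0306). Idh3b, the other regulatory subunit beside Idh3g, had a log2 fold change of 0.18 and did not pass. Between GCN2 KO Cold and WT RT, where 16.4% of all genes were called higher, 6 of the 9 were, namely Sucla2 (log2 fold change 0.48), Sdhb (0.44), Idh3b (0.43), Sdhd (0.38), Sdhc (0.33) and Dld (0.29), and between the cold groups none was called. Sdha, the flavoprotein subunit, and Suclg2 were not called in any comparison.

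Pyruvate feeds acetyl-CoA into the cycle through the pyruvate dehydrogenase complex. Of the 13 genes of the pyruvate dehydrogenase complex, its regulators and the mitochondrial pyruvate carrier, 4 fell, 1 rose and 8 did not pass in WT Cold against WT RT, where 14.1% of all genes were called lower. Pdk1, a kinase that switches the complex off, went from 4486 ± 525 to 1940 ± 195 normalized counts (SD, n = 3) and fell by 1.21 on the log2 scale (limma adjusted p = 0.000491). The catalytic subunits Pdhb (log2 fold change -0.43) and Pdha1 (-0.39) and the carrier subunit Mpc1 (-0.43) also fell, and the phosphatase Pdp2 rose (0.45). Pdk4, the abundant kinase of this family, had a log2 fold change of -0.29 in WT Cold, with 89794 ± 12340 normalized counts in WT RT and 75312 ± 22730 in WT Cold, and did not pass. In GCN2 KO Cold against WT RT, 2 of the 13 were higher and 4 lower, beside 16.4% of all genes called higher and 17.8% lower. Pdk1 (-1.07) and Pdk4 (-0.79) were among the lower genes.

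Among the gene lists described here, the largest difference in WT Cold was in a gene that draws on citrate leaving the cycle. Among 15 genes that replenish or drain it, 5 fell and 2 rose in WT Cold against WT RT, where 14.1% of all genes were called lower and 13.6% higher. Acly, which splits citrate in the cytosol to give acetyl-CoA for fat synthesis, was at 90273, 110925 and 135352 normalized counts in WT RT and at 8755, 6297 and 10790 in WT Cold. Its groups were an order of magnitude apart (log2 fold change -3.72, SE 0.21, limma adjusted p = 8.3e-05). The mitochondrial citrate carrier Slc25a1 fell by 1.83, malic enzyme Me1 by 1.59, the dicarboxylate carrier Slc25a10 by 0.99 and pyruvate carboxylase Pcx by 0.45 on the log2 scale. Glutamate dehydrogenase Glud1, which supplies 2-oxoglutarate, was among those that rose (0.40). Against WT RT, GCN2 KO Cold had 7 of the 15 lower, with Acly at -3.16, and 2 higher, Glud1 (0.44) being one of them, where 17.8% of all genes were lower and 16.4% higher. Between the cold groups none of the 15 was called.

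Of 6 cytosolic or tissue-restricted counterparts, Got1, the cytosolic aspartate aminotransferase of the malate-aspartate shuttle, rose from 1736 ± 259 to 6476 ± 709 normalized counts in WT Cold (SD, n = 3, log2 fold change 1.90, limma adjusted p = 0.000131), and the cytosolic forms Aco1 (-1.07) and Idh1 (-0.53) fell. Idh2, the mitochondrial counterpart of Idh1, was not called. Mdh1, the cytosolic malate dehydrogenase, was called higher in GCN2 KO Cold against WT RT (0.50) and had a log2 fold change of 0.15 in WT Cold (limma adjusted p = 0.142). Of 6 genes that make or attach lipoate, the cofactor of Dlst, Glrx5 rose (0.26) and Lias (-0.30) and Lipt1 (-0.40) fell in WT Cold. Glrx5 alone of these was called in GCN2 KO Cold against WT RT, at 0.46, and no gene of either list was called between the cold groups.

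Of 12 regulators of mitochondrial genes, 4 rose, 1 fell and 7 did not pass in WT Cold against WT RT, beside the same shares of all genes, 13.6% higher and 14.1% lower. Their median log2 fold change was 0.23. Ppargc1a, the coactivator PGC-1alpha, was at 1001, 1215 and 1723 normalized counts in WT RT and at 11849, 6490 and 7491 in WT Cold. Every cold library was several times above every WT RT library (log2 fold change 2.70, SE 0.26, limma adjusted p = 0.000540). Its partners among the estrogen-related receptors Esrrb (2.63, from a low level of 53.5 ± 28.2 normalized counts) and Esrra (0.69) rose, as did Perm1 (2.12), and Ppara fell (-0.51). In GCN2 KO Cold against WT RT, 5 rose, with Ppargc1a at 2.77 and the mitochondrial transcription factor Tfam at 0.43 among them, and Ppara fell (-0.88), where 16.4% of all genes rose and 17.8% fell. None was called between the cold groups.

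**Figure D5:**
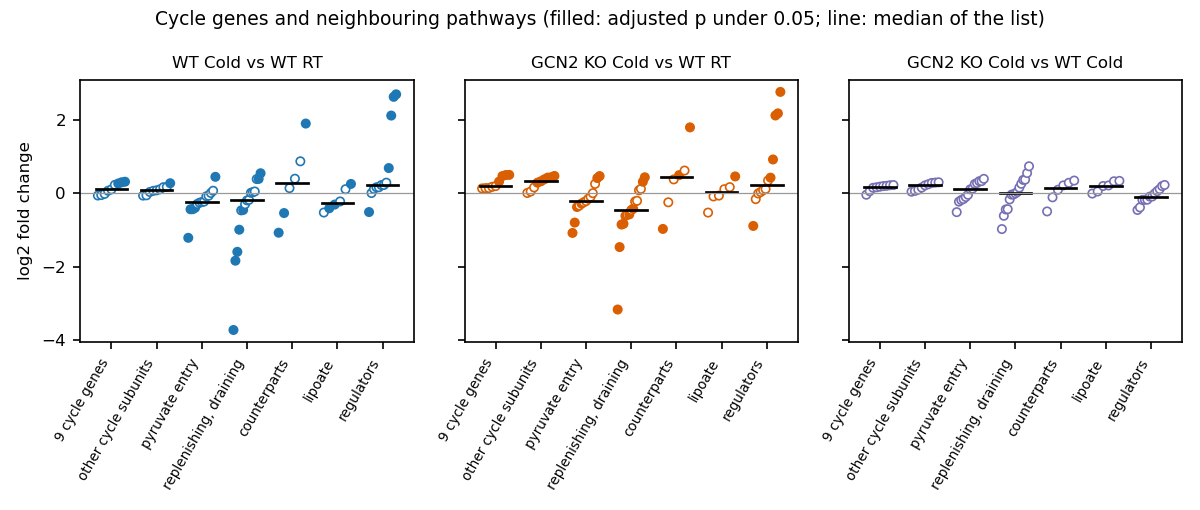
Log2 fold change of each gene of the 9 cycle genes and of 6 neighbouring lists in the 3 comparisons; filled points had an adjusted p under 0.05, and lines mark the median of each list. The 9 cycle genes span -0.056 to 0.32 in WT Cold against WT RT, while Acly lies at -3.72 and Ppargc1a at 2.70.

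The genes whose CPM over the 9 libraries was most like the mean of the 9 cycle genes, among 8599 genes, with points that share groups and depth and as a description only, were Rasgrp2 (Pearson r = 0.92), Ldhd (0.92), Atpaf1 (0.89), Aifm1 (0.89) and Scrn3 (0.89).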

How the data were processed

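RNA of brown adipose tissue was sequenced from 9 mice. According to the submitters' processing notes, reads were trimmed with Trimmomatic 0.36, aligned with STAR 2.5.2b to GRCm39 and counted with featureCounts (Subread 1.5.2). For each of 3 comparisons the authors deposited a normalized signal, made from counts by dividing each library by its size factor in that table. The log2 fold changes and p-values that the authors deposited beside it came from their DESeq2 comparison of the same groups and were not used. Whole reads were recovered for 100% of values (tolerance 0.1). Library codes were assigned to groups by the tables in which they occur, and no columns (0) came from other samples.

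The values were tested with limma 3.58.1 in R 4.3.3 on log2(normalized count + 1), with a mean-variance trend, 6 libraries per table and Benjamini-Hochberg adjustment over all genes of the table. Fold changes are on that scale, and tests stayed within a table. DESeq2 1.42.0 and edgeR 4.0.16 were run on the recovered reads, and the fits were checked on simulated data with known changes. A limma p-value weighs the difference between groups against the spread between mice within them, moderated over genes. CPM and RPKM were computed from recovered reads. Exon lengths came from GENCODE M21 on GRCm38, in which no exon of the 9 genes overlaps another gene. Because the builds differ, no coordinates are given except those of the RefSeq windows. The text names every one of the 9 genes, some genes of the fixed lists and the 5 most alike. Results of some listed genes are not reported here. The genes and lists were chosen with earlier results of these data known.

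Marker lists were summed as CPM in the WT RT, WT Cold and GCN2 KO Cold libraries. Leukocyte markers ran from 378 to 606, 218 to 297 and 157 to 256, endothelial markers from 558 to 612, 647 to 800 and 531 to 643, and red blood cell markers from 260 to 345, 572 to 2280 and 1084 to 2082. Fibroblast and progenitor markers ran from 833 to 971, 639 to 726 and 423 to 541, and Schwann cell markers from 57.3 to 76.7, 69.6 to 71.6 and 45.6 to 46.9.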

Additional observations from a re-analysis of the deposited data

How the results depend on the processing

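Pseudocounts of 0.5 and 5, a minimum mean normalized count of 50, TMM scaling, DESeq2 and edgeR left the number of the 9 genes called in each comparison as it was. In WT Cold against WT RT the number higher was 3, and it was 0 with CPM scaling, without the trend and with all 9 libraries in 1 fit (on the CPM scale), and 0 to 3 with a library left out. The cause was not tested. With the study's fold threshold added, 0 were called in either comparison with WT RT. The median log2 fold change became 0.0267 with CPM scaling and 0.0266 in the single fit for WT Cold against WT RT, 0.0673 and 0.0672 for GCN2 KO Cold against WT Cold, and -0.0021 and -0.0023 for GCN2 KO Cold against WT RT. With the mitochondrial genome left out of the CPM total, the last 2 were 0.108 and 0.0898. CPM scaling also took the number of the 9 genes without overlap from 6 to 1 in GCN2 KO Cold against WT Cold and from 5 to 3 in GCN2 KO Cold against WT RT. Leaving out a library gave medians of 0.0609 to 0.14, 0.15 to 0.22 and 0.15 to 0.28, and 3 to 4 genes higher in GCN2 KO Cold against WT RT.

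Signs turned for genes that were not called. In GCN2 KO Cold against WT RT, CPM scaling gave Cs -0.0579, Idh2 -0.0662, Ogdh -0.0021, Dlst -0.0561 and Suclg1 -0.0221, and the single fit gave -0.0582, -0.0664, -0.0023, -0.0563 and -0.0223 in that order. Idh2 was at -0.0108 and -0.0110 in WT Cold against WT RT, and at -0.0554 and -0.0554, or -0.0147 without the mitochondrial genome, in GCN2 KO Cold against WT Cold. With a library left out, Cs ran from -0.0649 to 0.0254, Idh2 from -0.0429 to 0.13 and Suclg1 from -0.0744 to 0.0070 in WT Cold against WT RT, and Idh2 from -0.0115 to 0.14 and Ogdh from -0.11 to 0.0137 in GCN2 KO Cold against WT Cold. No paired analysis was possible because the columns carry library codes and no replicate number.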
